A study of Mus musculus with 6 samples.

Results

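The growth hormone (GH) and insulin-like growth factor (IGF) axis of the liver was read through 10 genes of the 54532 in the count table. They were taken by gene name and were the hormone IGF1 (Igf1), its circulating partners (Igfals, Igfbp1, Igfbp2, Igfbp4), the GH receptor (Ghr), the transcription factors below it (Stat5a, Stat5b) and 2 feedback inhibitors (Socs2, Cish). All 10 passed the filter on low counts, which 13377 genes passed in all.

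The livers came from male C57BL/6J mice in which a high-fat diet, begun at 8 weeks of age and kept up for 6 weeks, had been used to bring about insulin resistance (IR). Mice were fasted for 16 h and then injected intraperitoneally with insulin at 0.75 units per kg (IR insulin, 3 libraries) or with its vehicle, bovine serum albumin (IR vehicle, 3 libraries), and livers were taken 6 h later. The diet and the fast were common to both groups, and only 1 dose and 1 time point were compared. The replicates were separate mice, per the study.

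Pituitary GH binds GHR on hepatocytes, the kinase JAK2 is activated, and STAT5 then switches on Igf1, Igfals and the inhibitors Socs2 and Cish. IGF1 leaves the liver bound to IGF binding proteins and, in blood, to the acid-labile subunit encoded by Igfals. Insulin is known to sustain hepatic GH receptor levels and to silence Igfbp1, which fasting switches on through the transcription factor FOXO1.

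The regions around the start sites of the genes were searched for the short words to which these factors bind. RefSeq windows (GRCm38.p6, 250 bases before and 50 after an annotated start) were at hand for 9 of the 10 genes, all but Socs2, and were read on both strands for CAAAACA, the core of the insulin response element to which FOXO1 binds, for the related forkhead word GTAAACA, and for TTCNNNGAA, the palindrome to which STAT5 binds. Some genes have several starts, and the 9 genes had 15 windows. CAAAACA was found in 1 of the 9 genes, Igfbp1, in 1 window, and in 7.2% of all 27025 genes (6.28% of 32851 windows). TTCNNNGAA was found in 2, Cish and Igfals, in 3 windows, and in 9.55% of all genes (8.3% of windows). GTAAACA was found in 1, Igfals, in 1 window, and in 4.05% of all genes (3.65% of windows). A match of letters is not a binding site, and the lack of one concerns only this window. The first sequence below is shown because Igfbp1 had the widest range of the 10 genes, and the others because they hold the STAT5 word. Capitals mark CAAAACA in the first and TTCNNNGAA in the others. The Igfbp1 and Igfals stretches end 1 base before the annotated start, and the Cish stretch is the 20 bases from the start onwards that span both of its matches.
Igfbp1, chr11:7197537-7197786, plus strand: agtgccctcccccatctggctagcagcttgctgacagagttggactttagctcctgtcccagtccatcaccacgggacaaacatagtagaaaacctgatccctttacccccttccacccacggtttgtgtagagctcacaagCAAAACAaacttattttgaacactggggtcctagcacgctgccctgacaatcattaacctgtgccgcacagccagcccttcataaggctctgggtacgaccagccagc
Igfals, chr17:24877981-24878230, plus strand: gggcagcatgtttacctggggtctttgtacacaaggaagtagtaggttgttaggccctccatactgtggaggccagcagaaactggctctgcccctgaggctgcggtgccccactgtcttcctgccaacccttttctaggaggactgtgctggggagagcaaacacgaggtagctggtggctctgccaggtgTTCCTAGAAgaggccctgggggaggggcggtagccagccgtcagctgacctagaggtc
Cish, chr9:107296659-107296678, plus strand: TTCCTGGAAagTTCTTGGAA
The match in Igfbp1 begins at base -108 from the start and the Igfals match shown at base -58. Igfals has 3 annotated starts, and TTCNNNGAA was in the windows of 2 of them, the other match, TTCTCAGAA, beginning at base -236 from its own start.

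Vehicle replicates 2 and 3 stood apart from the other libraries, and both bear on the values that follow. Totals ran from 18449986 to 21827619 counts. In vehicle replicate 2, levels fell with the GC content of the transcript by 1.16 log2 units per 10 percentage points, against slopes of -0.0637 to 0.192 in the other 5 libraries, and 16470 genes had a count, against 18389 to 18874. All 8 hepatocyte markers had counts in every library, CPM being counts scaled by TMM to a common library size. Their summed level was 181740 CPM in vehicle replicate 2 beside 65308 to 115069 CPM in the other libraries, and most of it was Alb, at 138554 CPM. The markers did not all go 1 way: Alb, Ttr, Apob, Cyp2e1 and Asgr1 were highest in vehicle replicate 2. Apoa1 and Tat were lowest there, at 3901 and 714 CPM, and Cps1 was highest in vehicle replicate 3. All 5 pancreas markers were at 0. The 5 erythroid markers, all detected in every library, had summed levels, of 413 to 1587 CPM with vehicle, the highest in replicate 2, and 312 to 478 CPM with insulin. Vehicle replicate 3 was the highest library for 6 of the 10 axis genes, and it was the highest for 23.4% of all genes tested. Vehicle replicate 2 was the lowest for 6 of the 10 axis genes and for 37.4% of all genes tested. In bulk liver, fewer cells of a type and less RNA per cell cannot be told apart.

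None of the 10 genes passed a threshold in the edgeR fit of all 6 libraries. With edgeR's quasi-likelihood test, 0 of 13377 genes (0%) reached a Benjamini-Hochberg adjusted p under 0.05, and 383 (2.86%) met the criteria given in the methods of the study, a log2 fold change of 0.35 or more in either direction and an unadjusted p under 0.05. The second count equals that of genes with an unadjusted p under 0.05, and DESeq2 and voom also gave 0 genes by adjusted p. Of the 10 axis genes, 0 met either threshold in this fit. Other fits that kept all libraries brought 1 past the criteria of the study, Ghr or Igfals, as given with each gene. The fitted log2 fold change was positive for 5 and negative for 5, with a median of -0.055, and the median of all genes tested was -0.017. The vehicle and insulin values failed to overlap for 1 of the 10, Ghr, and for 12.3% of all genes tested. The spread was mostly within the vehicle group: the ratio of the highest to the lowest of the 3 libraries was larger with vehicle than with insulin for 9 of the 10 genes, Socs2 being the exception, and for 85.2% of all genes tested. The median of that ratio over the 10 genes was 2.79 with vehicle and 1.24 with insulin, beside 2.02 and 1.28 over all genes tested.

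**Figure D1:**
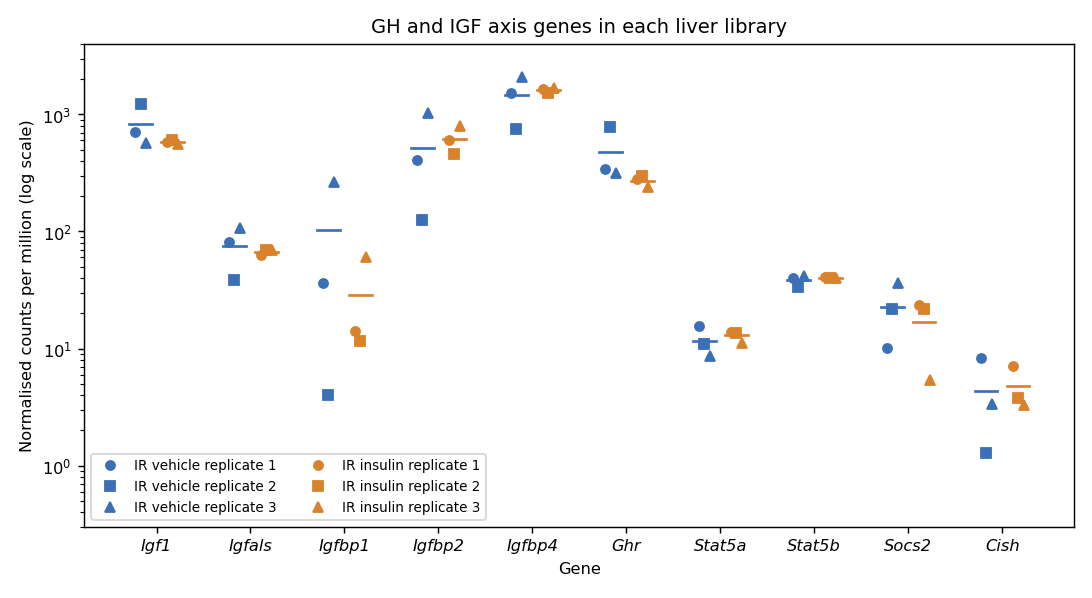
Normalised CPM (log axis) of the 10 GH and IGF axis genes in each of the 6 libraries; the short lines are group means. Igfbp1 ran from 3.99 to 266 CPM among the vehicle libraries, and the insulin points of Igf1, Igfals, Igfbp4 and Stat5b lie almost on top of each other.

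Igf1 encodes the hormone itself, most of which in blood comes from the liver. Its gene lies at chr10:87858265-87937042 (GRCm38, plus strand), and its longest coding transcript has 4 exons. Vehicle replicates 1, 2 and 3 held Igf1 at 702, 1220 and 571 CPM, and insulin replicates 1, 2 and 3 at 579, 609 and 554 CPM. Vehicle replicate 2 was far above the other 5 libraries, and the groups overlapped because vehicle replicate 3 lay below 2 of the insulin libraries. The means were 831 ± 343 CPM with vehicle and 581 ± 27.3 CPM with insulin (SD, n = 3 each), a log2 fold change of -0.52 ± 0.32 (SE, edgeR adjusted p = 0.852). Without vehicle replicate 2 it came to -0.13 ± 0.19, and with a GC offset, in which a smooth curve of level on GC content is removed from each library, to -0.10 ± 0.19. When vehicle replicate 3 was left out it was -0.73 ± 0.29 (edgeR adjusted p = 0.522) and met the criteria of the study, which 6.55% of all genes met in that fit. Igf1 has the lowest GC content of the 10 genes, 38%. In vehicle replicate 2 it was 1.08 log2 units above the median of the other libraries, and the median of 289 genes within 1 percentage point of its GC content was 0.98 units above.

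The genes closest to Igf1 in their course over the 6 libraries were Tomm70a, Tm9sf3 and Ppp4r3b, with root mean square differences of centred log2 CPM of 0.0399, 0.0443 and 0.0447 among 7422 candidates. Their transcripts hold 40.7%, 40.0% and 40.1% GC. Each was highest in vehicle replicate 2, like Igf1, which follows largely from how they were picked. Tomm70a was at 191, 345 and 156 CPM in the vehicle libraries, beside 169, 171 and 149 CPM in the insulin libraries. Among the axis genes the closest was Ghr, at 0.180. The antisense gene Igf1os overlaps Igf1 and had 21 to 41 counts, beside 11964 to 19874 for Igf1.

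Ghr encodes the GH receptor, which sets how strongly a hepatocyte responds to GH. The gene lies at chr15:3317760-3583492 on the minus strand, with 11 exons. Ghr was at 343, 778 and 315 CPM with vehicle and at 280, 297 and 238 CPM with insulin. All 3 vehicle values were above all 3 insulin values, narrowly for replicates 1 and 3 and by a wide margin for replicate 2. The log2 fold change was -0.82 ± 0.38 (95% interval -1.69 to 0.05, edgeR adjusted p = 0.852), the interval that came nearest to leaving out 0 among the 10 genes. Ghr lost most of its difference without vehicle replicate 2, at -0.27 ± 0.17, and came to -0.45 ± 0.21 with the GC offset. Ghr did not meet the criteria of the study in either fit, nor in the edgeR fit of all libraries above. With all libraries it met them by DESeq2 on the same genes (-0.83, adjusted p = 0.911), as 3.79% of genes did, with DESeq2 on every gene with a count (2.38% of genes) and in edgeR with no filter (3.22%). It also met them without vehicle replicate 1 (-1.0, where 9.89% of genes did) and without vehicle replicate 3 (-1.05, where 6.55% did). The transcript holds 40.9% GC, and in vehicle replicate 2 Ghr was 1.39 units above the other libraries, where genes of like GC content were 0.85 above. The summed hepatocyte markers, mostly Alb, and the summed erythroid markers were also highest in that library, while the hepatocyte markers Apoa1 and Tat were lowest there. Their part in the Ghr and Igf1 values was not tested.

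Igfbp1 was the axis gene with the widest range. It encodes a small IGF binding protein that the liver secretes in fasting and that withholds IGF1 from its receptor. The gene is short, chr11:7197782-7202546 on the plus strand, with 4 exons, and no other gene overlaps it. In the vehicle libraries Igfbp1 was at 36.5, 3.99 and 266 CPM, from 691, 65 and 5575 counts. In the insulin libraries it was at 14.0, 11.6 and 60.2 CPM, from 312, 268 and 1306 counts. The highest and the lowest of the 6 values were both vehicle libraries, so the insulin range lay wholly inside the vehicle range. The highest vehicle value was 66.6 times the lowest, a ratio exceeded by 210 of the 13377 genes tested, and the insulin ratio was 5.19.

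The Igfbp1 log2 fold change was -1.84 ± 1.26 (95% interval -4.74 to 1.07, edgeR adjusted p = 0.852), the largest of the 10 in size and the least precise. Its direction rested on vehicle replicate 3. Leaving out that library turned it to 0.50 ± 1.0, while it stayed negative without any of the other 5 libraries, at -2.99 to -1.46. Leaving out vehicle replicate 2 gave -2.40 ± 0.93 (edgeR adjusted p = 0.888), which met the criteria of the study, as 3.6% of all genes did. The voom fit of limma, which averages log values, gave -0.69 ± 1.38 (adjusted p = 0.883). Genes of like GC content did not share these departures: Igfbp1 differed from the other libraries by -3.16 units in vehicle replicate 2, where such genes differed by -0.06, and by 4.23 units in vehicle replicate 3, where they differed by 0.015. In insulin replicate 3 it differed by 2.09.

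The genes most like Igfbp1 followed it less closely than those most like Igf1 did. They were Depp1 at 0.765, Arl4d at 0.970 and Irf2bp2 at 0.998 in root mean square difference. Depp1, an autophagy regulator known to be induced by FOXO factors and by fasting, was at 28.8, 3.62 and 68.8 CPM with vehicle and at 18.5, 12.7 and 35.4 CPM with insulin. Depp1, Arl4d and Irf2bp2 were each lowest in vehicle replicate 2 and highest in vehicle replicate 3, like Igfbp1, which follows largely from how they were picked. A shared input was not tested. CAAAACA was not in the start-site window of Depp1, Arl4d or Irf2bp2.

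Igfbp2 and Igfbp4 were the most abundant axis transcripts for their length. Igfbp2 encodes a binding protein that rises in fasting and is abundant in serum, and lies at chr1:72824503-72852474 on the plus strand. It was at 405, 126 and 1034 CPM with vehicle and at 605, 460 and 800 CPM with insulin. As for Igfbp1, vehicle replicate 2 was the lowest and vehicle replicate 3 the highest of all 6, and the insulin values fell between them. The log2 fold change was 0.25 ± 0.65 (edgeR adjusted p = 0.927), with a 95% interval of -1.24 to 1.75. Its sign turned without vehicle replicate 2, at -0.21, and with the GC offset, at -0.097. It was 1.23 ± 0.51 once vehicle replicate 3 was left out (edgeR adjusted p = 0.522), past the criteria. Igfbp2 has the highest GC content of the 10 genes, 62.1%, and differed from the other libraries by -2.26 units in vehicle replicate 2, beside -1.99 for genes of like GC content.

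Igfbp4, whose product binds IGF1 until it is cut by the protease PAPP-A, lies at chr11:99041244-99054392 on the plus strand. It was at 1529, 752 and 2089 CPM with vehicle and at 1645, 1527 and 1679 CPM with insulin. The insulin libraries agreed to within a ratio of 1.10, and the vehicle libraries lay on both sides of them. Its log2 fold change was 0.15 ± 0.38 (edgeR adjusted p = 0.924), with a 95% interval of -0.72 to 1.02. It was -0.16 without vehicle replicate 2.

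Igfals, at chr17:24865997-24882010 on the plus strand, encodes the acid-labile subunit that locks IGF1 and its main carrier into a long-lived complex in blood. It was at 81.0, 38.6 and 108 CPM with vehicle and at 62.4, 69.4 and 69.0 CPM with insulin. Vehicle replicates 1 and 3 lay above every insulin library and vehicle replicate 2 below. Igfals had a log2 fold change of -0.18 ± 0.36 (edgeR adjusted p = 0.902). Igfals fell, by the criteria of the study, in the fits that set vehicle replicate 2 aside or took its GC slope out. It was -0.49 ± 0.17 without that library (edgeR adjusted p = 0.888), where 3.6% of all genes met the criteria and 2.02% in that direction. With the GC offset it was -0.58 ± 0.17 (edgeR adjusted p = 0.929), where 3.62% of all genes met them and 2.9% in that direction. The sign turned, to 0.16, when vehicle replicate 3 was left out. The transcript holds 58.9% GC, and its difference of -0.85 units in vehicle replicate 2 was smaller than the -1.30 of genes of like GC content. Igfals and Igfbp4 followed each other nearly as closely over the libraries as Igf1 and Ghr, with a root mean square difference of 0.182.

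Stat5a and Stat5b, neighbours on chromosome 11 (chr11:100859351-100885169, plus strand, and chr11:100780731-100850724, minus strand), encode the factors that carry the GH signal to the nucleus, STAT5B being the main form in liver. Stat5b was the steadiest axis gene, at 40.0, 33.3 and 41.8 CPM in the vehicle libraries and at 40.7, 40.0 and 40.2 CPM with insulin. Its insulin values lay within those of vehicle, and their ratio of highest to lowest, 1.02, was smaller than that of all but 0.449% of genes tested. The log2 fold change of Stat5b was 0.07 ± 0.20 (95% interval -0.39 to 0.53, edgeR adjusted p = 0.932). Stat5a was at 15.5, 11.0 and 8.58 CPM in the vehicle libraries and at 14.0, 13.7 and 11.3 CPM with insulin. Its groups overlapped, and the log2 fold change was 0.15 ± 0.28 (edgeR adjusted p = 0.895). The reads of these genes can be confused: 15.8% of the 50-base stretches of the Stat5a transcript also occur in that of Stat5b, and Stat5a overlaps Stat3, which had 2089 to 3833 counts on the opposite strand, beside 179 to 316 for Stat5a.

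Socs2 and Cish encode SOCS proteins that STAT5 induces and that damp GHR signalling, and their transcripts are common readouts of recent GH action. Socs2, at chr10:95385362-95417180 on the minus strand, was at 10.2, 21.7 and 36.6 CPM with vehicle and at 23.8, 21.6 and 5.35 CPM with insulin. The lowest library of all was insulin replicate 3 and the highest was vehicle replicate 3. Socs2 had a log2 fold change of -0.43 ± 0.61 (edgeR adjusted p = 0.869). Leaving out insulin replicate 3 brought it to 4.58e-05, and leaving out vehicle replicate 3 to 0.086.

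Cish, at chr9:107296026-107302784 on the plus strand, was the scarcest axis transcript, with 21 to 158 counts a library. It was at 8.25, 1.29 and 3.39 CPM with vehicle and at 7.11, 3.81 and 3.32 CPM with insulin. Replicate 1 was the highest in each group, and the groups overlapped almost fully. Cish had a log2 fold change of 0.14 ± 0.63 (edgeR adjusted p = 0.956), with a 95% interval of -1.31 to 1.58. It came to 1.0 without vehicle replicate 1 and to -0.29 without vehicle replicate 2. The predicted genes Gm17040 and Gm17041 overlap Cish and had 0 to 6 counts.

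**Figure D2:**
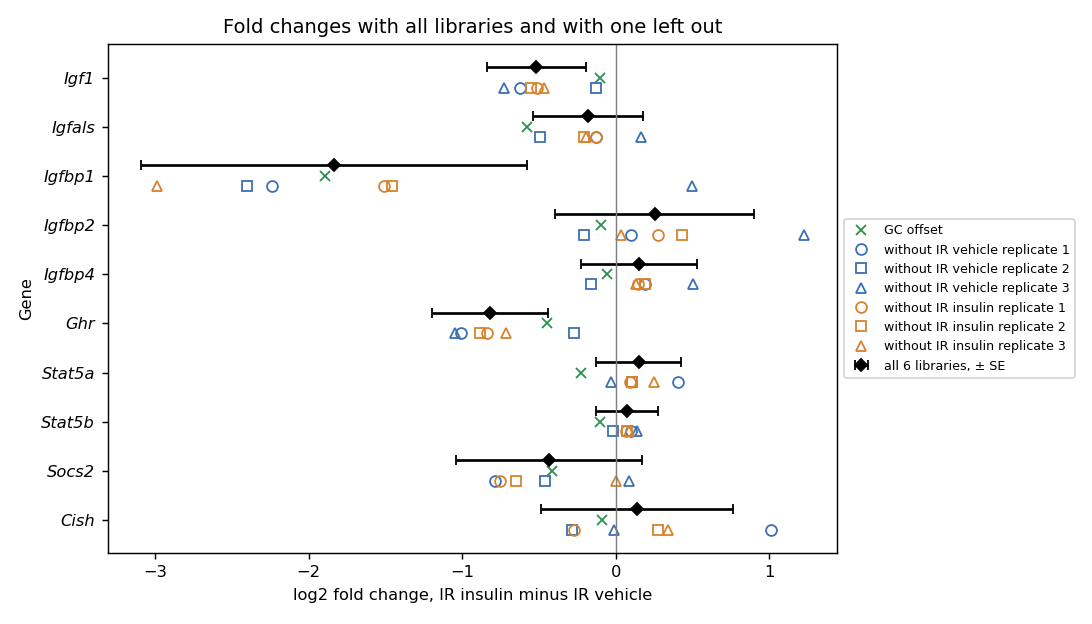
Log2 fold change (IR insulin minus IR vehicle) of each axis gene, with the SE, from all 6 libraries (diamonds), with the GC offset (crosses) and with 1 library left out (open symbols, blue for vehicle and orange for insulin). Without vehicle replicate 3 Igfbp1 moves from -1.84 to 0.50, and without vehicle replicate 2 Igf1 moves from -0.52 to -0.13.

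The signs over the whole set depended on which libraries were kept. With vehicle replicate 2 left out, 9 of the 10 genes had a negative fold change (median -0.24), beside 6420 of all 13377 (median 0.012), and 2, Igfals and Igfbp1, met the criteria of the study, beside 3.6% of all genes. With the GC offset all 10 were negative (median -0.17), beside 7701 of all 13367 (median -0.057), and 1, Igfals, met them, beside 3.62%. With vehicle replicate 3 left out, 4 were negative (median 0.11), beside 6490 of all 13377 (median 0.024), and 3 met the criteria, Igf1 and Ghr lower and Igfbp2 higher, beside 6.55%. Without vehicle replicate 1 the signs stayed at 5 and 5 (median -0.017) and 1, Ghr, met the criteria, beside 9.89%. Without insulin replicates 1, 2 and 3 in turn, 6, 5 and 4 were negative (medians -0.20, -0.066 and 0.017) and 0 met them. Over all 13377 genes, 90, 128 and 114 met them in these fits. Vehicle and insulin values were fully apart for 2 genes without vehicle replicate 1 (Ghr and Stat5a), 2 without vehicle replicate 2 (Igfals and Ghr) and 4 without vehicle replicate 3 (Igf1, Igfbp2, Ghr and Stat5b), and for 30.7%, 19.2% and 31.2% of all genes tested.

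**Figure D3:**
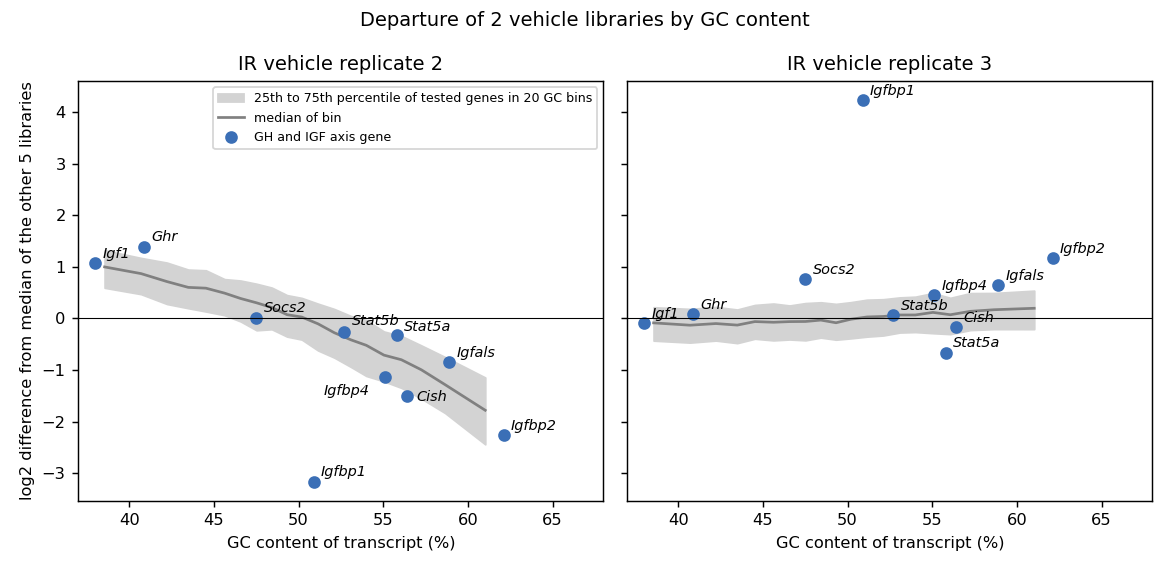
Log2 difference of each axis gene in vehicle replicate 2 (left) and vehicle replicate 3 (right) from the median of the other 5 libraries, against GC content; the grey band is the 25th to 75th percentile of all tested genes. In vehicle replicate 2 Igf1 and Igfbp2 lie near the band at its opposite ends, while Igfbp1 lies at -3.16 there and at 4.23 in vehicle replicate 3.

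Levels were also put on a scale of CPM per kilobase of the longest coding transcript, which allows a rough comparison between genes. The mean vehicle order was Igfbp2 (399), Igfbp4 (380), Igf1 (118), Ghr (115), Igfbp1 (67.0), Igfals (28.9), Socs2 (10.3), Stat5b (7.36), Stat5a (3.01) and Cish (1.51). These means include vehicle replicate 2 with its GC slope, and shorter transcripts of a gene were not considered. Igfbp2 with Igfbp4, and Igf1 with Ghr, were neighbours whose levels overlapped between libraries, and Igfbp1 overlapped both Ghr and Igfals, Socs2 overlapped both Igfals and Stat5b, and Stat5a overlapped Cish. Igfbp4 and Igf1, and Stat5b and Stat5a, did not overlap. With insulin the order differed in 2 places. Igfals (25.5) stood above Igfbp1 (18.8), and Stat5b (7.73) above Socs2 (7.60), and the levels of each pair overlapped between libraries.

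The wider GH pathway was read from lists of known genes, each gene with its value in the same fit. Of 20 genes of GH receptor signalling, all tested, 14 had a positive and 6 a negative fold change, with a median of 0.25, which came to 0.092 with the GC offset and 0.14 without vehicle replicate 2. By the criteria of the study 1 rose and 1 fell, beside 1% and 1.86% of all genes tested. The groups did not overlap for 2 of the 20, Pias3 and Shc1, beside 12.3% of all genes tested. Pias3, an inhibitor of STAT signalling, was higher in every insulin library, at 4.86, 2.89 and 3.86 CPM in the vehicle libraries and at 7.02, 6.02 and 7.20 CPM with insulin (log2 fold change 0.80 ± 0.30, edgeR adjusted p = 0.852). Pias3 stayed positive but no longer met the criteria in 5 of the 17 alternative fits. Among these were the fits without any 1 of the insulin libraries, at 0.76 to 0.87, and voom with quality weights, at 0.56. Over all 13377 genes, 90, 128 and 114 met them without insulin replicates 1, 2 and 3. Prlr, the prolactin receptor, a close relative of GHR, was at 48.8, 103 and 89.5 CPM with vehicle and at 32.2, 50.0 and 38.2 CPM with insulin (-1.0 ± 0.33, edgeR adjusted p = 0.852). Vehicle replicate 1 fell just below the highest insulin library. Prlr also met the criteria with the GC offset (-0.70) and without vehicle replicate 2 (-0.78), but not with voom and quality weights (-0.56) or without insulin replicate 1 (-0.86) or insulin replicate 3 (-0.95). Grb10, an adaptor that restrains insulin and IGF1 receptors, had the next smallest p (-0.54 ± 0.35, edgeR adjusted p = 0.852).

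Of 16 further IGF receptors, binding proteins and proteases, 10 were tested, 5 with a positive and 5 with a negative fold change. Of these, 0 met the criteria in the fit of all libraries, beside 2.86% of all genes tested. Igf2, Igfbpl1, Pappa, Pappa2, Stc1 and Stc2 were below the filter. Igfbp3, the main carrier of IGF1 in blood and largely a product of liver cells other than hepatocytes, was at 2.80, 1.11 and 22.6 CPM with vehicle and at 6.75, 3.72 and 3.64 CPM with insulin (-0.91 ± 0.94, edgeR adjusted p = 0.854). Vehicle replicate 3 alone was high. Without that library the Igfbp3 value was 1.26 (edgeR adjusted p = 0.522), in the opposite direction, and met the criteria, as 6.55% of all genes did. The 6 endothelial markers, all detected in every library, summed to 144 to 244 CPM with vehicle, highest in replicate 3, and to 153 to 166 CPM with insulin. They did not all go 1 way: Stab2, Clec4g, Pecam1 and Kdr were highest in vehicle replicate 3. Lyve1 was level in vehicle replicates 2 and 3, and Cdh5 was highest in insulin replicate 1. The part of these markers in the Igfbp3 values was not tested. Furin, a protease that processes the IGF1 precursor (0.36 ± 0.33), and Igfbp6, a carrier with a preference for IGF2 (0.39 ± 0.39), had edgeR adjusted p values of 0.852 and 0.853.

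GH pulses keep male-biased liver genes on, and 15 of the 17 tested from a list of 18 had a negative fold change, with a median of -0.47. By the criteria 2 fell, beside 1.86% of all genes, and 0 rose. Mup20, a urinary pheromone carrier of a family of near-identical genes whose reads cannot be assigned with certainty, was at 3956, 7889 and 5442 CPM with vehicle and at 3581, 1989 and 2927 CPM with insulin (-1.02 ± 0.37, edgeR adjusted p = 0.852). Nudt7, a peroxisomal coenzyme A hydrolase, was at 530, 762 and 448 CPM with vehicle and at 447, 325 and 284 CPM with insulin (-0.72 ± 0.30, edgeR adjusted p = 0.852). These were the 2 of the 17 whose groups did not overlap, beside 12.3% of all genes tested. Slco1a1, an organic anion transporter, was at -0.87 ± 0.46, and vehicle replicate 2 alone was high, at 1185 CPM beside 344 to 411 CPM elsewhere. Vehicle replicate 2 was the highest library for 13 of the 17, beside 35.8% of all genes tested. Without it the median was -0.09, 10 of 17 were negative and 0 met the criteria, by which 2.02% of all genes fell. Mup20 came to -0.73 and Nudt7 to -0.47. With the GC offset the median was -0.37, 15 of 17 were negative and 1, Nudt7 (-0.55), fell by the criteria, beside 2.9% of all genes. Mup20, at -0.72, did not meet them there. Without vehicle replicate 3 the median was instead -0.85, 14 of 17 were negative and 6 fell by the criteria, beside 4.87% of all genes. Without insulin replicate 2 it was -0.32 and 0 met them, and without insulin replicate 3 it was -0.60 and 1 fell, neither Mup20 nor Nudt7. In each of these fits 65 of all 13377 genes fell by the criteria.

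Of 22 female-biased GH-dependent genes, 10 were tested in these male livers, 9 with a negative fold change, with a median of -0.87. By the criteria 2 fell, beside 1.86% of all genes: Cyp2c40 (-3.06 ± 1.10, edgeR adjusted p = 0.852) and Fmo2 (-2.98 ± 1.15, edgeR adjusted p = 0.852), both drug-metabolising oxygenases. In each, vehicle replicate 3 was the highest library by a wide margin. Cyp2c40, one of a cluster of similar genes whose reads may be shared, was at 0.423, 3.50 and 16.7 CPM with vehicle and at 1.26, 0.476 and 0.738 CPM with insulin. Fmo2 was at 6.29, 6.63 and 116 CPM with vehicle and at 9.37, 3.46 and 3.60 CPM with insulin. Trim24, a nuclear receptor cofactor, was at -0.80 ± 0.35 and met the criteria in 7 of the 17 alternative fits, the GC offset (-0.80) among them. Once vehicle replicate 3 was left out, the 10 genes had a median of -0.26 and 0 met the criteria, by which 4.87% of all genes fell. Fmo2 came to -0.24 and Cyp2c40 to -1.23. Leaving out insulin replicate 2 or insulin replicate 3 also left 0 past the criteria, with Cyp2c40 at -2.78 and -2.98. In each of these fits 65 of all 13377 genes fell by the criteria, beside 249 with all libraries. Without vehicle replicate 2 the median was -1.04 and 4 of the 10 fell by the criteria, beside 2.02% of all genes. Without vehicle replicate 1 it was -1.12 and 4 fell, beside 5.41%.

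The last list held 10 other genes that FOXO1 maintains in fasting and insulin represses, the input that Igfbp1 shares. Foxo1 itself was among them, and Insr was also in the list of IGF receptors. All 10 were tested, 9 had a negative fold change, with a median of -0.56, and 0 met the criteria, beside 2.86% of all genes tested. Vehicle replicate 3, the highest library for Igfbp1, was the highest for 7 of the 10, beside 23.4% of all genes tested. That was not particular to this list, since vehicle replicate 3 was also the highest for 7 of the 10 female-biased genes tested. The same held for 6 of the 10 axis genes. G6pc, which releases glucose from glucose 6-phosphate, was at 122, 104 and 365 CPM with vehicle and at 61.9, 80.7 and 126 CPM with insulin (-1.14 ± 0.52). It met the criteria in 9 of the 17 alternative fits. Klf15, a transcription factor of fasting amino acid catabolism, was at 58.1, 48.3 and 234 CPM with vehicle and at 45.9, 53.1 and 66.0 CPM with insulin (-1.04 ± 0.58). In both genes vehicle replicate 3 stood far above the rest, and vehicle replicates 1 and 2 were within the insulin range. Sesn3, a stress-induced regulator of growth signalling, was at -0.76 ± 0.40, with vehicle replicate 2 as its highest library. Once vehicle replicate 3 was left out, the 10 FOXO1-dependent genes had a median of -0.20, G6pc came to -0.34 and Klf15 to 0.049. Without vehicle replicate 2, 3 of the 10 fell by the criteria, G6pc (-1.44) and Klf15 (-1.40) among them, beside 2.02% of all genes, and the median was -0.50. Without vehicle replicate 1, 3 fell, beside 5.41%, with a median of -0.80. The count was 2 with the GC offset, beside 2.9% of all genes, and 2 without insulin replicate 3, where 65 of all 13377 genes fell.

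**Figure D4:**
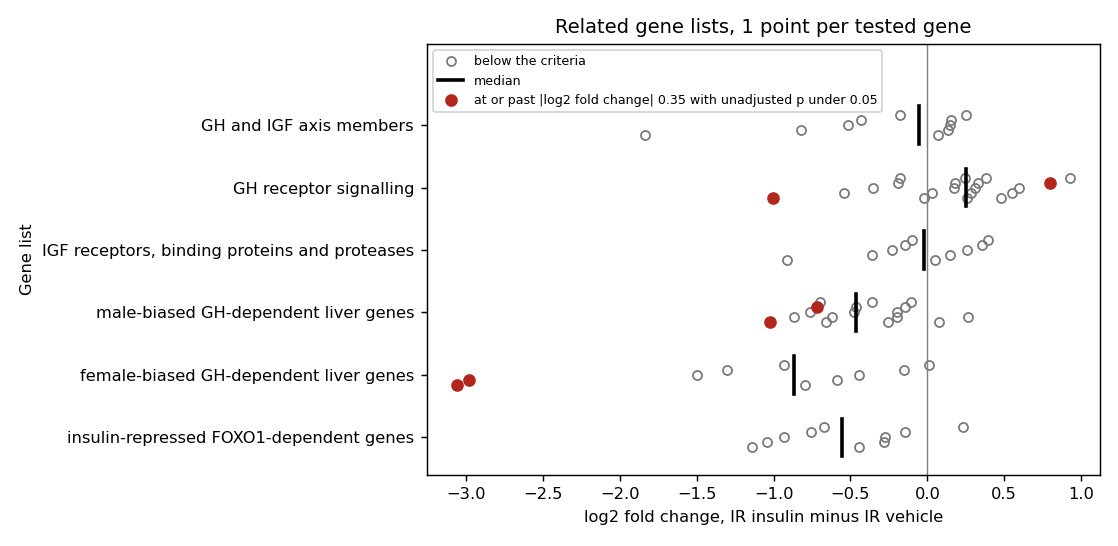
Log2 fold change (IR insulin minus IR vehicle) of every tested gene of the axis and of the 5 related lists; filled red points met the criteria of the study and black bars are medians. The median was -0.055 for the axis genes, -0.47 for male-biased, -0.87 for female-biased and -0.56 for FOXO1-dependent genes, beside -0.017 over all genes.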

How the data were processed

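Liver RNA-seq of 3 IR insulin and 3 IR vehicle libraries was used, grouped by the sample labels. The deposited table holds whole-number read counts per gene, which the authors had not normalised. Libraries were made with the NEBNext Ultra kit, sequenced on an Illumina HiSeq and aligned to mm10 with Bowtie2 2.2.3, per the methods and the submitters' processing notes. The counting program, annotation release and strand setting were not given in the sources used here, so overlapping and near-identical genes are uncertain.

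Counts were compared by edgeR 4.0.16 (R 4.3.3, glmQLFit and glmQLFTest, TMM, and the filter filterByExpr at its defaults, a count of 10 and a total of 15), with p values adjusted by the Benjamini-Hochberg method over 13377 genes. CPM are TMM-scaled counts relative to library size. SE and 95% intervals come from the F statistic. The test was checked on simulated data. With 3 libraries a group, no two-sided permutation p can be lower than 0.1, so none was computed. Gene models were those of GENCODE M21 (GRCm38), where 54495 identifiers matched (99.9%). Alternatives were RLE and upper-quartile factors, other filters, DESeq2 1.42.0, voom (limma 3.58.1), a GC offset (loess, span 0.5), a replicate block and leaving out each library.

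The axis genes and lists were chosen with earlier results of these data known. Named in the text were all axis genes, in each list the 3 genes with the smallest p and up to 5 that met the criteria of the study, and the 3 genes most like Igf1 and Igfbp1 among those with a mean of at least 10 CPM. Total counts per library were 18449986 to 21827619. Reads were not tagged by molecule, so counts may include copies, and the spread between libraries (biological coefficient of variation 0.357) limits precision.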

Additional observations from a re-analysis of the deposited data

How the results depend on the processing

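No gene had an adjusted p under 0.05 in any of the 17 alternatives run (edgeR, DESeq2 and voom fits), the smallest being 0.117, without vehicle replicate 1. The count of genes by the criteria of the study (383, of which 134 higher and 249 lower, and also the count with an unadjusted p under 0.05) was 742 with no filter, 213 with voom and quality weights, and 90 to 1323 when 1 library was left out. Leaving out vehicle replicates 1 and 3 gave 1323 and 876, and leaving out insulin replicates 1, 2 and 3 gave 90, 128 and 114. With the GC offset 96 were higher and 388 lower. Of the axis genes (0), 1 met the criteria with no filter and with either DESeq2 fit (Ghr), 1 with the GC offset and with the block and GC offset together (Igfals), and 0 to 3 when 1 library was left out. The count over the 5 lists (6) was 14 with no filter, 2 with voom and quality weights and 1 to 13 when 1 library was left out, with 1 and 3 for insulin replicates 2 and 3 and 13 for vehicle replicate 1. The median of the axis genes (-0.055) was 0.011 with voom, 0.0054 with the replicate block and -0.24 to 0.11 when 1 library was left out.

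The log2 fold changes of single genes turned sign in some alternatives. With the GC offset, and with the block and GC offset, they were -0.097 and -0.016 for Igfbp2, -0.058 and -0.030 for Igfbp4, -0.23 and -0.16 for Stat5a, -0.10 and -0.10 for Stat5b, -0.037 and -0.038 for Furin, and -0.28 and -0.22 for Igfbp6. Cish was at -0.089 with the GC offset and -0.31 with voom and quality weights, where Socs2 was at 0.30. Igfbp3 was at 0.032 with voom, 0.11 with quality weights and 0.21 with the block. With 1 library left out, values ran from -0.49 to 0.16 for Igfals, -2.99 to 0.50 for Igfbp1, -0.21 to 1.23 for Igfbp2, -0.16 to 0.50 for Igfbp4, -0.79 to 0.086 for Socs2, -0.29 to 1.0 for Cish, -0.034 to 0.41 for Stat5a, -0.018 to 0.14 for Stat5b, -1.43 to 1.26 for Igfbp3 and -1.40 to 0.049 for Klf15. The cause was not tested. These fits assume that a group of 2 varies like the other.

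The replicate numbers were not treated as pairs, since deviations of same-numbered libraries had correlations of -0.039, 0.069 and 0.017. With the number as a block, 321 genes met the criteria of the study, Igfbp1 was at -0.79 and 0 axis genes met them. The 21 counts of Cish in vehicle replicate 2 limit that value.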
